A study of Mus musculus with 59 samples.

Results

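BCL2 family proteins decide whether the outer mitochondrial membrane stays closed. BAX and BAK1, the effectors, form the pores that let cytochrome c out, BCL2, BCL2L1 (BCL-XL) and MCL1 restrain them, and the BH3-only proteins BCL2L11 (BIM), BID, BBC3 (PUMA), PMAIP1 (NOXA) and BMF free or activate them. Cytochrome c then binds APAF1 and caspases are activated. The early postimplantation epiblast, the cup of pluripotent cells that forms the embryo proper, is known for a low threshold for this kind of death.

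The 10 transcripts described here were chosen by gene symbol, 3 anti-apoptotic, 2 effector and 5 BH3-only, out of 22134 genes with a listed transcript. For each gene the transcript with the highest mean raw count was used, and all 10 were listed in the deposited counts and passed the filter on low counts in both crosses. They were measured by RNA-seq in 14 single epiblasts dissected at E6.25, on a mixed background. G9a-/- epiblasts lack the H3K9me2 methyltransferase encoded by Ehmt2 (4 epiblasts) and were compared with 4 controls. Ezh-/- epiblasts lack EZH2, the H3K27 methyltransferase of Polycomb repressive complex 2 (3 epiblasts), and were compared with 3 controls. Controls are labelled G9a+/+ and Ezh+/+, while the study's methods also admit heterozygous embryos as controls. All embryos came from matings between heterozygous parents, the Ehmt2 line from a published conditional allele later crossed to a Pou5f1-EGFP reporter and the Ezh2 line from a published allele. The study's methods give 4 litters for the Ehmt2 cross and 3 for the Ezh2 cross. Each sample is 1 embryo, so the spread between samples is that between embryos, litters included. Which epiblasts were littermates is not given in the sources used here. The question was whether transcripts of pro- or anti-apoptotic members differed between knockout and control in each cross.

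What these members share at the sequence level is the BH3 core, a leucine and a glycine or alanine with 3 residues between them, followed by an aspartate. The reference coding sequences (GENCODE M21, GRCm38) of 9 members were searched for it, and each of the 9 held exactly 1 match. Pmaip1 was not searched here. For Bid the sequence is that of its coding transcript (ENSMUST00000004560), since the transcript measured below is another one. The same short core occurs in 4640 of 18059 protein-coding genes (25.7%), so a match alone is a description. The coding bases of each match are shown 5′ to 3′ because this core occurs in protectors, effectors and BH3-only members alike, with the codons of the small residue and the aspartate in capitals.
Bcl2 (chr1:106712584-106712601, minus strand): ctccgccgggctGGGGAT
Bcl2l1 (chr2:152829706-152829723, minus strand): ctgagagaggcaGGCGAT
Mcl1 (chr3:95659436-95659453, plus strand): ctgcggcgcgtgGGCGAC
Bak1 (chr17:27022540-27022557, minus strand): cttgctctcatcGGAGAT
Bax (chr7:45466006-45466023, minus strand): ctccggcgaattGGAGAT
Bcl2l11 (chr2:128147150-128147167, plus strand): ctgcggcggatcGGAGAC
Bid (chr6:120897298-120897315, minus strand): ctcgcccaaataGGCGAT
Bbc3 (chr7:16313773-16313790, plus strand): ctgcggcggatgGCGGAC
Bmf (chr2:118545109-118545126, minus strand): cttcagtgtattGCAGAC
The small residue was an alanine in the 2 BH3-only members Bbc3 and Bmf and a glycine in the other 7. Each match lies within a single coding exon, exon 1 of 2 in Bcl2, exon 3 of 6 in Bax and exon 4 of 6 in Bak1.

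Summed over all listed transcripts, the counts were between 30161171 and 68464895 per epiblast. Both labels held in the targeted transcript. Ehmt2 had 10.5 to 34.0 CPM (edgeR's normalised count, relative to the scaled library) in its controls and 3.29 to 9.78 in its knockouts (log2 fold change −1.63, SE 0.21, edgeR adjusted p = 0.0045). Ezh2 had 51.6 to 108 CPM in its controls and 11.4 to 15.97 in its knockouts (log2 fold change −2.52, edgeR adjusted p = 0.016). Control 4 and knockout 4 of the Ehmt2 cross stood apart from the other 6 epiblasts, with the deepest libraries, and the edgeR fits of this cross and of the difference between crosses were also run without them. The 7 epiblast markers summed to 2390 to 2750 CPM in Ehmt2 controls and 1420 to 2158 CPM in Ehmt2 knockouts, with no overlap. Most of this sum was Dnmt3b, with 1628 to 2068 CPM in these controls and 987 to 1423 CPM in these knockouts. Of the 7 markers, 6 had a negative log2 fold change and 1 a positive one (Sox2, 0.28). After adjustment 0 passed by edgeR and 3 by DESeq2. The 9 extraembryonic ectoderm markers summed to 25.1 to 128 CPM in these controls and 22.5 to 317 CPM in these knockouts. By edgeR 4 of the 9 passed as higher in the knockouts (Elf5, Esrrb, Bmp4 and Tfap2c). The most abundant of the 9, Eomes, had a log2 fold change of −0.13 (SE 0.48). Replicate 4 differed, with a sum of 43.2 CPM in control 4 and 22.5 CPM in knockout 4. Elf5 and Cdx2 were each at 0 in both of these epiblasts. In Ezh2 knockouts 7 of the 9 extraembryonic ectoderm markers were tested and all 7 had a positive log2 fold change (median 1.96), 4 with an unadjusted p under 0.05, 0 after adjustment by edgeR and 1 by DESeq2 (Bmp4). Their sum was 65.2 to 97.8 CPM in Ezh2 controls and 74.01 to 147 CPM in Ezh2 knockouts, overlapping ranges. The 3 tested streak markers were also positive there (median 1.15), 0 passing by edgeR and 1 by DESeq2 (Lefty2). Visceral endoderm markers reached 1126 CPM in Ezh2 knockout 1 and 522 CPM in Ezh2 control 2, against 28.4 to 40.1 CPM in the other 4 epiblasts of that cross. No fit was adjusted for these markers, and their part in the member levels was not tested. Blood markers summed to at most 1.45 CPM in any epiblast.

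In both sets of controls the family was led by one protector and one effector, Mcl1 and Bax. Divided by transcript length, the mean levels in Ezh2 controls were 23.5 ± 1.64 CPM per kb for Mcl1 (SD, n = 3), 19.4 ± 1.41 for Bax, 10.6 ± 1.08 for Bak1, 8.95 ± 0.47 for Bcl2l11, 8.08 ± 4.05 for Pmaip1 and 5.75 ± 0.65 for Bid. Below these stood Bcl2l1 at 2.69 ± 0.56 CPM per kb, Bmf at 1.30 ± 0.23, Bbc3 at 1.04 ± 0.41 and Bcl2 at 0.24 ± 0.15. The ranges of neighbours in this order overlapped between Bak1 and Bcl2l11, Bcl2l11 and Pmaip1, Pmaip1 and Bid, and Bmf and Bbc3, and the other neighbours stood apart. In the 4 Ehmt2 controls Bax came first at 35.8 ± 22.9 CPM per kb and Mcl1 next at 26.7 ± 4.91, with overlapping ranges. That order rested on control 4, since over controls 1 to 3 Mcl1 had 25.6 ± 5.47 and Bax 24.6 ± 5.18 CPM per kb (SD, n = 3). Over all 4, neighbours stood apart only between Mcl1 and Pmaip1 and between Bid and Bcl2l1.

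**Figure D1:**
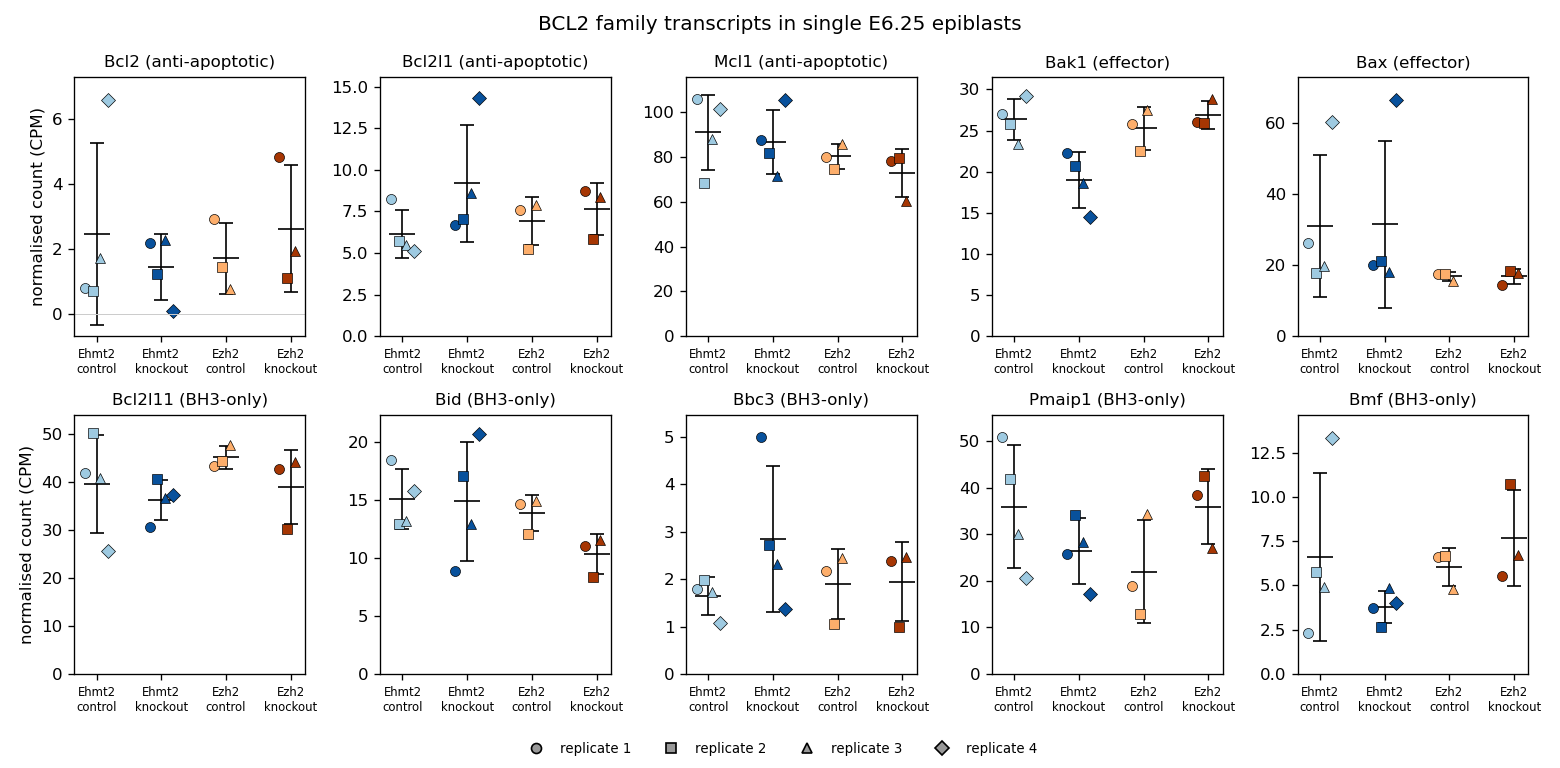
Normalised count (CPM, linear axis) of each of the 10 BCL2 family transcripts in the 14 single epiblasts, by cross and genotype. Symbols are epiblasts with their replicate number, and bars show the mean and SD of each group. Bak1 is the only panel in which all 4 Ehmt2 knockouts (14.4 to 22.3 CPM) lie below all 4 controls (23.4 to 29.2 CPM), and replicate 4 lies far above the other replicates for Bax.

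None of the 10 members passed an adjusted p of 0.05 in either cross. In the Ehmt2 cross 0 of 10 passed by edgeR, where 1.11% of 13749 genes tested did, and 0 of 10 by DESeq2, where 4.55% did. At an unadjusted p under 0.05, 2 members (Bak1 and Pmaip1, both lower) passed by edgeR, against 15.4% of all genes. In the Ezh2 cross 0 of 10 passed by edgeR, where 0.00714% of 14010 genes did (Ezh2 itself), and 0 of 10 by DESeq2, where 1.01% did. At an unadjusted p under 0.05, 1 member (Pmaip1, higher) passed, against 8.89% of all genes. The median log2 fold change of the members was −0.08 in the Ehmt2 cross and 0.07 in the Ezh2 cross, beside 0.01 and 0.03 over all genes. The 95% interval lay within a 2-fold change either way for 6 members in the Ehmt2 cross (Mcl1, Bcl2l11, Bak1, Bax, Bid and Pmaip1) and for 7 in the Ezh2 cross (those but Pmaip1, with Bcl2l1 and Bmf). For the other members the interval reached past a 2-fold change in at least 1 direction. In whole epiblasts, fewer cells of a type and less RNA per cell cannot be told apart.

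**Figure D2:**
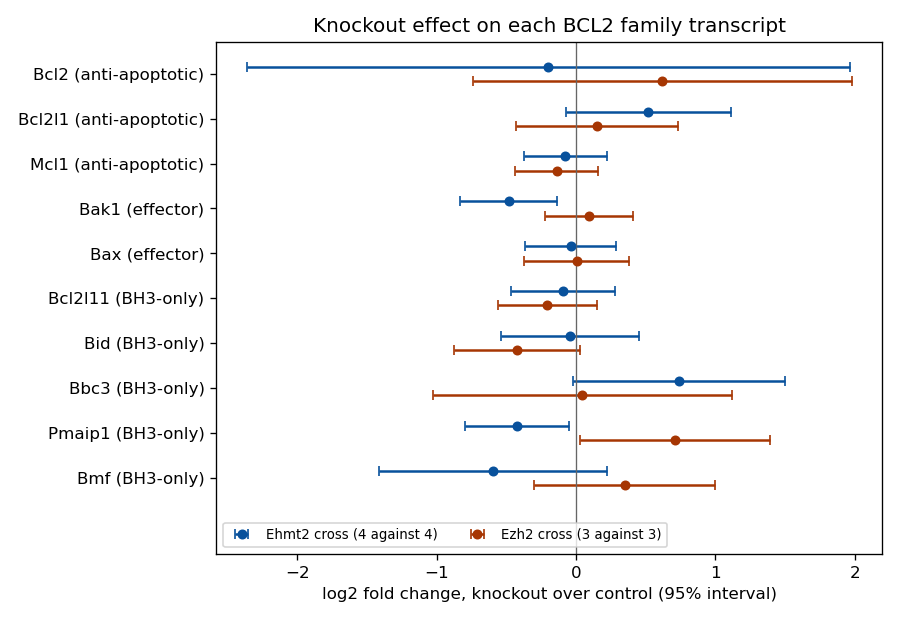
Log2 fold change of each BCL2 family transcript, knockout over control, with its 95% interval from edgeR, in the Ehmt2 cross (4 against 4 epiblasts) and the Ezh2 cross (3 against 3). In the Ehmt2 cross Bak1 (−0.48) and Pmaip1 (−0.42) have intervals below 0, in the Ezh2 cross Pmaip1 (0.71) has an interval above 0, and Bcl2 has the widest intervals.

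Among the effectors, Bak1 was lower in every Ehmt2 knockout than in any control. BAK1 sits in the outer mitochondrial membrane, and its transcript (ENSMUST00000078691, 6 exons, chromosome 17 from 27019810 to 27029009, minus strand, GRCm38) lies 7.87 Mb from Ehmt2. Bak1 had 27.1, 25.8, 23.4 and 29.2 CPM in the Ehmt2 controls, given here and below in order of replicate number, and 22.3, 20.7, 18.6 and 14.4 CPM in the knockouts. The groups did not overlap. That was so in this direction for 1 of the 10 members and for 2.64% of all genes, and in the other direction for no member and 3.53% of genes. The two-sided exact permutation test gave p = 0.0286, the smallest that 4 epiblasts against 4 allow, and edgeR gave a log2 fold change of −0.48 (SE 0.16, adjusted p = 0.245). Without replicate 4 of both genotypes the log2 fold change was −0.31 (SE 0.15), and the 3 controls and 3 knockouts left did not overlap. The summed epiblast markers, mostly Dnmt3b, were also lower in every knockout of this cross, and their part in the Bak1 level was not tested. A fit with a covariate for extraembryonic ectoderm markers gave −0.90 (SE 0.24, edgeR adjusted p = 0.095, over all alternatives 0.095 to 0.589). Of these 9 markers 8 were higher in sign in Ehmt2 knockouts, so the covariate and genotype are not independent. With it the median absolute log2 fold change over all genes rose from 0.25 to 0.44, and the median SE from 0.25 to 0.40. In the Ezh2 cross these rose from 0.23 to 0.36 and from 0.28 to 0.44. Values with this covariate are description, here and below. Bak1 overlaps Ggnbp1 on the opposite strand, and the library kit does not mark strand, so reads of the shared bases cannot be told apart. Ezh2 controls had 25.7, 22.5 and 27.5 CPM of Bak1 and Ezh2 knockouts 26.0, 25.9 and 28.8 CPM, overlapping ranges (log2 fold change 0.09, SE 0.14).

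Bax, the effector that moves from cytosol to mitochondria (ENSMUST00000033093, 6 exons, chromosome 7 from 45461697 to 45466898), did not differ between genotypes beyond its spread. It had 26.4, 17.8, 19.7 and 60.4 CPM in Ehmt2 controls and 19.9, 21.3, 18.2 and 66.6 CPM in knockouts. Replicate 4 was 2.84 and 3.36 times the mean of the other 3 in controls and knockouts, and the other 6 epiblasts lay between 17.8 and 26.4 CPM. The span of Bax overlaps the protein-coding gene Gm45808 on the same strand, and whether counted reads are shared was not tested. The log2 fold change, fitted with a term for replicate 4, was −0.04 (SE 0.15, 95% interval −0.36 to 0.29). Bax had 17.6, 17.5 and 15.4 CPM in Ezh2 controls and 14.4, 18.3 and 17.96 CPM in knockouts, a log2 fold change of 0.0039 (SE 0.17, 95% interval −0.37 to 0.38).

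Of the protectors, Mcl1 made up most of the message. MCL1 is a short-lived protector that binds BAK1, BIM and NOXA, and its transcript (ENSMUST00000037947, 3 exons, chromosome 3 from 95658788 to 95663176) had 2309 to 6326 raw counts per epiblast. Mcl1 had 106, 68.7, 88.1 and 102 CPM in Ehmt2 controls and 87.8, 81.9, 71.6 and 106 CPM in knockouts. The ranges overlapped, with a log2 fold change of −0.08 (SE 0.14, 95% interval −0.37 to 0.22). Ezh2 controls had 80.2, 74.9 and 86.1 CPM, against 78.5, 79.6 and 60.5 CPM in knockouts, where knockout 3 was the lowest of all 14 (log2 fold change −0.14, SE 0.13, and −0.42, SE 0.19, with the covariate).

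Bcl2l1, which encodes BCL-XL (ENSMUST00000109820, chromosome 2 from 152780672 to 152830666), varied most through 1 epiblast. It had 8.26, 5.75, 5.50 and 5.12 CPM in Ehmt2 controls and 6.72, 7.08, 8.61 and 14.4 CPM in knockouts. Knockout 4 was 1.92 times the mean of the other knockouts, while control 1 lay above knockouts 1 and 2. The log2 fold change was 0.52 (SE 0.27, edgeR adjusted p = 0.494), and 0.20 (SE 0.24) without replicate 4 of both genotypes. With the covariate for extraembryonic ectoderm markers it was 1.37 (SE 0.37, edgeR adjusted p = 0.095, over all alternatives 0.095 to 0.838), level with Bak1 as the lowest adjusted p of any member. In the Ezh2 cross the ranges were 5.25 to 7.90 CPM in controls and 5.87 to 8.72 CPM in knockouts (log2 fold change 0.15, SE 0.26).

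Bcl2 itself (ENSMUST00000112751, chromosome 1 from 106538178 to 106714274) was the lowest of the 10 per kb and the least settled. It had 0.80, 0.69, 1.71 and 6.58 CPM in Ehmt2 controls and 2.17, 1.21, 2.27 and 0.08 CPM in knockouts. Replicate 4 held both extremes, 351 counts in control 4 and 5 counts in knockout 4, although those were the deepest libraries. The log2 fold change was −0.20 (SE 0.99, 95% interval −2.36 to 1.96), and 0.82 (SE 0.48) without replicate 4 of both genotypes, so its sign rested on that pair. The covariate for extraembryonic ectoderm markers took it to −4.56 (SE 1.30, edgeR adjusted p = 0.107, over all alternatives 0.107 to 0.986). Bcl2 had 2.91, 1.43 and 0.76 CPM in Ezh2 controls and 4.81, 1.10 and 1.94 CPM in knockouts (log2 fold change 0.62, SE 0.61, and −0.16 without knockout 1). Its span overlaps Mir3473f and Gm37053 on the same strand and D630008O14Rik on the other, and whether counted reads are shared was not tested.

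Pmaip1 was the BH3-only member with the highest level per kb in Ehmt2 controls, and the one whose knockout effects lay farthest apart between crosses. NOXA, its product, binds MCL1 in preference to other protectors (ENSMUST00000025399, 3 exons, chromosome 18 from 66458533 to 66465560). Pmaip1 had 51.02, 41.8, 30.2 and 20.7 CPM in Ehmt2 controls and 25.9, 34.2, 28.3 and 17.2 CPM in knockouts. The ranges overlapped widely, and the log2 fold change was −0.42 (SE 0.17, edgeR adjusted p = 0.359), or −0.10 (SE 0.27) with the covariate for extraembryonic ectoderm markers. In the Ezh2 cross it had 18.8, 12.9 and 34.3 CPM in controls and 38.4, 42.5 and 27.004 CPM in knockouts, where control 3 lay above knockout 3. The log2 fold change there was 0.71 (SE 0.31, edgeR adjusted p = 0.699). It was 1.18 without control 3 and 0.44 without control 2, and 0.36 (SE 0.50) with the covariate.

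In the direct test of Ehmt2 effect minus Ezh2 effect, Pmaip1 differed by −1.13 on the log2 scale (SE 0.37, 95% interval −1.92 to −0.34, edgeR adjusted p = 0.423) and Bak1 by −0.57 (SE 0.22, adjusted p = 0.493). These 2 of 10 members had an unadjusted p under 0.05, against 10.3% of 15213 genes. After adjustment 0 of 10 passed by edgeR (0.118% of all genes did) and 0 of 10 by DESeq2 (0.979% did).

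Bcl2l11 encodes BIM, a BH3-only protein that binds every protector (ENSMUST00000110341, 4 exons, chromosome 2 from 128126039 to 128162547). It had 41.9, 50.1, 40.7 and 25.6 CPM in Ehmt2 controls and 30.5, 40.5, 36.7 and 37.3 CPM in knockouts. The knockouts lay inside the range of the controls (log2 fold change −0.09, SE 0.17). Ezh2 controls had 43.2, 44.3 and 47.7 CPM, against 42.6, 30.1 and 44.2 CPM in knockouts, knockout 2 being lowest (log2 fold change −0.21, SE 0.16).

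Bid encodes a protein that is cleaved by caspase-8 to link death receptors to mitochondria. Its highest-count transcript was lower in every Ezh2 knockout than in any Ezh2 control. It had 14.7, 12.1 and 14.9 CPM in Ezh2 controls and 11.1, 8.38 and 11.6 CPM in knockouts (log2 fold change −0.42, SE 0.20, edgeR adjusted p = 0.736). Groups were apart in this direction for 1 of the 10 members and for 6.58% of all genes, and in the other direction for no member and 7.65% of genes. The exact permutation p = 0.10 is the smallest that 3 epiblasts against 3 allow. Extraembryonic ectoderm markers were positive in sign in these knockouts, and with their mean level as a covariate Bid had −0.36 (SE 0.33). In the Ehmt2 cross Bid had 18.5, 12.9, 13.2 and 15.8 CPM in controls and 8.86, 17.1, 12.99 and 20.7 CPM in knockouts, so the knockouts held both the lowest and the highest epiblast (log2 fold change −0.04, SE 0.23). Its highest-count transcript (ENSMUST00000160684, 7 exons, chromosome 6 from 120891930 to 120916836) is annotated as a target of nonsense-mediated decay, shares reads with the coding transcript and overlaps Bcl2l13 on the other strand. The coding transcript (ENSMUST00000004560) did not separate the Ezh2 groups, with 250 raw counts in control 2 and 367 in knockout 3. Its log2 fold change in that cross was −0.47 (SE 0.28, edgeR adjusted p = 0.796).

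Bbc3 and Bmf were scarce. Bbc3 encodes PUMA, a p53 target (ENSMUST00000002152, 4 exons, chromosome 7 from 16309616 to 16318205), and had 1.80, 1.97, 1.74 and 1.07 CPM in Ehmt2 controls and 5.00, 2.72, 2.32 and 1.37 CPM in knockouts. Knockouts 1 to 3 lay above every control and knockout 4 did not, and within replicate 4 the knockout was also the higher. The log2 fold change was 0.74 (SE 0.35, edgeR adjusted p = 0.440), resting on 57 to 175 raw counts per epiblast, and 0.43 without knockout 1. Knockout 1, the highest for Bbc3, was also the highest in summed extraembryonic ectoderm markers (317 CPM). The part of these markers in the Bbc3 level was not tested, and marker level and genotype are not independent in this cross. With a covariate for these markers the log2 fold change was −0.00062. No SE is given for that value, since SEs were derived from the fold change and its test statistic, which is unreliable so near 0. Bbc3 had 1.06 to 2.44 CPM in Ezh2 controls and 0.99 to 2.46 CPM in knockouts.

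Bmf, a BH3-only protein released from the cytoskeleton (ENSMUST00000090219, 5 exons, chromosome 2 from 118528757 to 118549687), had 2.33, 5.77, 4.89 and 13.3 CPM in Ehmt2 controls and 3.72, 2.63, 4.85 and 3.99 CPM in knockouts. Control 4 was 3.08 times the mean of the other controls, and all 4 knockouts lay within the control range (log2 fold change −0.60, SE 0.37). It was −0.22 without control 4, without knockout 4 and without both, and −1.58 (SE 0.55, edgeR adjusted p = 0.168, over all alternatives 0.168 to 0.888) with the covariate for extraembryonic ectoderm markers. Ezh2 epiblasts had 6.60, 6.67 and 4.82 CPM in controls and 5.56, 10.7 and 6.74 CPM in knockouts (log2 fold change 0.35, SE 0.29), of which 0.030 was left without knockout 2. No member's knockout range lay above its control range in either cross, where 3.53% of genes in the Ehmt2 cross and 7.65% in the Ezh2 cross did.

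Pro- and anti-apoptotic members were then summed per kb in each epiblast, 7 pro-apoptotic against 3 protectors. The pro-apoptotic sum was 1.93 to 3.21 times the anti-apoptotic sum in every one of the 14 epiblasts, as transcript and not as protein. Mcl1 made up 83.4% to 91.5% of the anti-apoptotic sum. On the log2 scale the ratio was 1.18, 1.52, 1.07 and 1.68 in Ehmt2 controls and 0.95, 1.23, 1.14 and 1.55 in knockouts. The means were 1.36 ± 0.29 and 1.22 ± 0.25 (SD, n = 4), a difference of −0.15 within the spread, and replicate 4, where Bax was high, had the highest ratio in both genotypes. Without replicate 4 the difference was −0.15 as well. In the Ezh2 cross the ratio was 1.04, 1.06 and 1.08 in controls and 1.08, 1.22 and 1.48 in knockouts. The means were 1.06 ± 0.02 and 1.26 ± 0.20 (SD, n = 3), a difference of 0.20 with groups that just overlapped. No test was made of these sums, whose members were chosen with results known.

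By role, the effectors summed to 31.4 to 41.7 CPM per kb in Ehmt2 controls 1 to 3 and 28.8 to 33.2 in knockouts 1 to 3, against 81.9 and 82.9 in replicate 4. BH3-only members summed to 29.6 ± 6.08 CPM per kb in Ehmt2 controls and 25.4 ± 3.05 in knockouts, and to 25.1 ± 5.08 and 27.9 ± 1.68 in Ezh2 controls and knockouts. Protectors summed to 29.4 ± 5.33 and 29.1 ± 5.16 CPM per kb in the Ehmt2 cross and to 26.4 ± 2.14 and 24.7 ± 3.04 in the Ezh2 cross. Each difference between genotypes in these 3 kinds of sum was smaller than the larger SD of its groups, also over Ehmt2 replicates 1 to 3 for effectors and protectors, while the BH3-only sums there were 31.9 ± 4.86 in controls and 26.0 ± 3.51 in knockouts (SD, n = 3) with overlapping ranges. The log2 ratio of BH3-only members to protectors separated the Ezh2 groups narrowly, with −0.15, −0.23 and 0.11 in controls and 0.13, 0.12 and 0.31 in knockouts. Control 3 at 0.110 and knockout 2 at 0.116 nearly met. The means were −0.090 ± 0.18 and 0.19 ± 0.11 (SD, n = 3), a difference of 0.28, larger than either SD. Of the BH3-only members, Pmaip1 had means of 8.08 CPM per kb in Ezh2 controls and 13.2 in knockouts, with overlapping ranges. Knockouts lay above controls for 7.65% of all genes in this cross, and the ratio was not tested. In the Ehmt2 cross the same ratio overlapped, with means of 0.0059 ± 0.45 and −0.19 ± 0.35 (SD, n = 4).

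**Figure D3:**
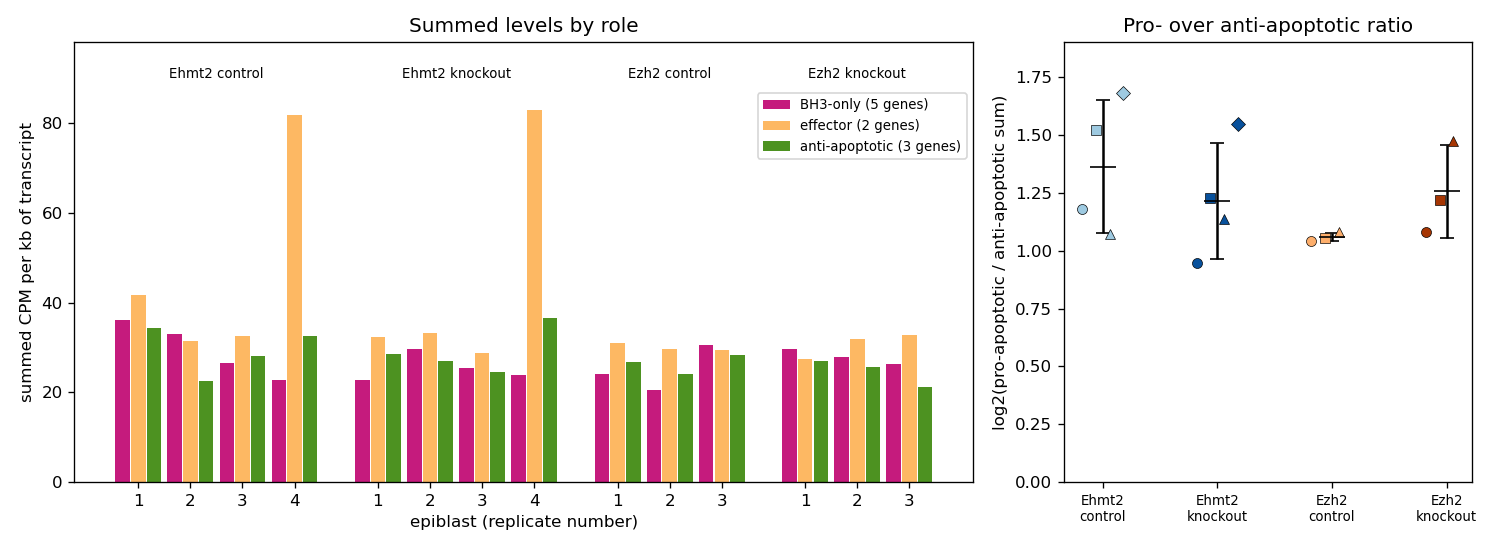
Left, summed CPM per kb of BH3-only, effector and anti-apoptotic members in each of the 14 epiblasts. Right, log2 ratio of the pro-apoptotic to the anti-apoptotic sum, with symbols for epiblasts and bars for mean and SD. Effector sums reach 81.9 and 82.9 in replicate 4 of the Ehmt2 cross, and all 14 log2 ratios lie between 0.95 and 1.68.

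The transcripts counted for one gene share exons and therefore reads, so they are not independent measures. Of 41 listed member transcripts, 34 were tested in the Ehmt2 cross (17 up, 17 down in sign) and 35 in the Ezh2 cross (21 up, 14 down), and 0 passed after adjustment by edgeR, where 0.67% of 49872 and 0.0118% of 50855 transcripts did. At an unadjusted p under 0.05 there were 5 in the Ehmt2 cross and 1 in the Ezh2 cross, against 11.8% and 7.02% of all transcripts. For Bak1 the 3 tested transcripts were all lower in Ehmt2 knockouts, from −0.49 to −0.14. For Bcl2l11 the signs were mixed in the Ehmt2 cross, 6 of 8 transcripts being higher and the 2 with the most counts lower, from −0.10 to 0.90. All 9 Bcl2l1 transcripts were higher in sign in Ezh2 knockouts and 8 of 9 in Ehmt2 knockouts.

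**Figure D4:**
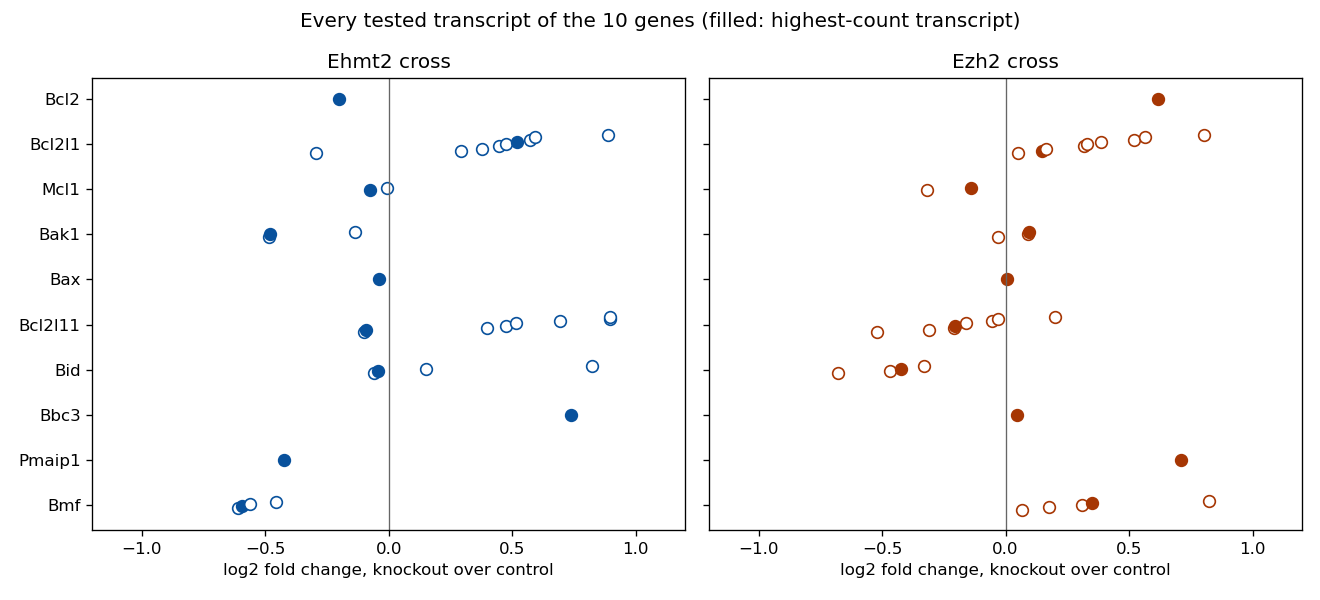
Log2 fold change, knockout over control, of every tested transcript of the 10 genes in the Ehmt2 and Ezh2 crosses, with the highest-count transcript of each gene filled. The 8 Bcl2l11 transcripts spread from −0.10 to 0.90 in the Ehmt2 cross, and the 3 Bak1 transcripts lie below 0 there.

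Outside the 10 members, 1 gene of 3 related lists passed after adjustment by edgeR (Mdm2), where 1.11% of all genes did in the Ehmt2 cross. By DESeq2 Foxo3, Apaf1 and Bnip3 passed as well, where 4.55% of all genes did in the Ehmt2 cross and 1.01% in the Ezh2 cross. Mdm2, the ubiquitin ligase that limits p53 and is itself a p53 target, rose in Ehmt2 knockouts. It had 45.1, 40.5, 55.0 and 34.2 CPM in Ehmt2 controls and 74.1, 91.3, 63.1 and 88.6 CPM in knockouts, which did not overlap (log2 fold change 0.87, SE 0.17, edgeR adjusted p = 0.041, over all alternatives 8.9e-05 to 0.196). It no longer passed when any one of controls 1 to 4 or knockouts 1, 2 or 4 was left out (log2 fold change 0.70 to 0.99), nor with the replicate number as a block (edgeR adjusted p = 0.140), without the term for replicate 4 (0.196), without replicate 4 of both genotypes (0.066) or with the covariate for extraembryonic ectoderm markers (0.053), and it passed by DESeq2. In the Ezh2 cross Mdm2 had 43.8 to 50.1 CPM in controls and 38.7 to 45.9 CPM in knockouts (log2 fold change −0.13, SE 0.13), and the difference between crosses did not pass by edgeR (1.00, SE 0.23, adjusted p = 0.173) and passed by DESeq2 (adjusted p = 0.0080).

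Among 15 regulators of BCL2 family expression or turnover, Mdm2 was the 1 that passed in the Ehmt2 cross and 0 passed in the Ezh2 cross by edgeR. By DESeq2 Foxo3, a transcription factor that can induce Bcl2l11, passed too in the Ehmt2 cross. Foxo3 had 22.8, 21.02, 31.2 and 19.6 CPM in Ehmt2 controls and 35.4, 38.7, 35.7 and 51.4 CPM in knockouts, which did not overlap. Its log2 fold change was 0.76 by both tools (SE 0.18, edgeR adjusted p = 0.098, DESeq2 adjusted p = 0.0040, over all alternatives 0.0040 to 0.292), and −0.25 (SE 0.23) in the Ezh2 cross. The 4 most abundant regulators did not pass by either tool. The ubiquitin ligase Huwe1, which marks MCL1 for degradation, had log2 fold changes of 0.09 (SE 0.09) and −0.0046 (SE 0.11) in the Ehmt2 and Ezh2 crosses. Usp9x, a deubiquitinase of MCL1, had 0.12 (SE 0.09) in the Ehmt2 cross, Trp53 (p53) −0.19 (SE 0.09, edgeR adjusted p = 0.412) and Atf4, a stress transcription factor, −0.15 (SE 0.12).

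Of 12 genes of the mitochondrial execution step, 0 passed by edgeR in either cross. In sign 11 were positive in the Ehmt2 cross (median 0.19, over all genes 0.01) and 2 in the Ezh2 cross (median −0.10, over all genes 0.03). By DESeq2 1 of the 12 passed in the Ehmt2 cross, Apaf1, which builds the apoptosome (0.70, SE 0.20, adjusted p = 0.018). By edgeR Apaf1 had 0.70 (SE 0.19, adjusted p = 0.149, over all alternatives 0.018 to 0.399). The most abundant were the channels Vdac1 and Vdac2, with log2 fold changes of 0.15 (SE 0.12) and 0.29 (SE 0.14) in the Ehmt2 cross, Vdac3 with 0.07 (SE 0.12), and Cycs, cytochrome c, with 0.24 (SE 0.10, edgeR adjusted p = 0.359).

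Of 16 other BCL2 family genes, 9 were tested in each cross and 0 passed by edgeR. The most abundant was Bnip3l, a mitophagy receptor (−0.17, SE 0.20 in the Ehmt2 cross and −0.47, SE 0.14, edgeR adjusted p = 0.549 in the Ezh2 cross). Its relative Bnip3, induced by low oxygen, had 68.8, 48.4 and 35.4 CPM in Ezh2 controls and 24.3, 23.1 and 15.5 CPM in knockouts, with no overlap. Its log2 fold change was −1.28 (SE 0.25, edgeR adjusted p = 0.310, over all alternatives 4.3e-05 to 0.659) and passed by DESeq2. In the Ehmt2 cross Bnip3 had 24.1, 43.7, 27.5 and 59.5 CPM in controls and 19.2, 7.66, 17.9 and 45.4 CPM in knockouts (−0.91, SE 0.28, edgeR adjusted p = 0.211, DESeq2 adjusted p = 0.030). Bcl2l13 had −0.39 (SE 0.14, edgeR adjusted p = 0.270) and the protector Bcl2l2 0.09 (SE 0.26) in the Ehmt2 cross.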

How the data were processed

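From each single E6.25 epiblast 750 pg of RNA was amplified (Ovation System V2). Reads were trimmed by the authors, who aligned them with TopHat2 to GRCm38 (mm10), counted with HTSeq per Ensembl transcript and deposited these whole counts without normalisation. Whether strand was used is not given in the sources used here. A row of reads that were not aligned, 12.6% and 13.3% of the columns of control 4 and knockout 4 of the Ehmt2 cross, was left out. A transcript missing from a file was set to 0.

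Transcripts were named with GENCODE M21 (70021 of 72515 matched, 96.6%). Counts sum over transcripts that share reads, so CPM is relative to that sum. Low counts were removed with filterByExpr, and counts were TMM-scaled and tested with glmQLFTest in edgeR 4.0.16 (R 4.3.3), per cross, with a term for replicate 4 in the Ehmt2 cross, and over both crosses for the difference. Adjustment was by Benjamini-Hochberg over all transcripts, and shares of genes use the highest-count transcript of each gene. DESeq2 1.42.0 was an alternative. Permutation tests used log2(CPM + 0.5) in scipy 1.17.1. The code was tested on simulated data. Beyond the members, genes were named when they passed by edgeR in either cross or were among the 4 most abundant of a list, and Apaf1, Foxo3 and Lefty2 were named after their values were seen. The members and lists were chosen with earlier results of these data known. Other alternatives are given in the closing section.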

Additional observations from a re-analysis of the deposited data

Results flagged for a closer look

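The Bax level of Ehmt2 knockout 4, 66.6 CPM, lay far above the other 3 knockouts (18.2 to 21.3 CPM), farther than 95% of groups of 4 would place their extreme value by Dixon's test. Control 4, of the same replicate number, had 60.4 CPM beside 17.8 to 26.4 CPM in the other controls, so both genotypes were high in that replicate. Of 22 groups looked at, 1 stood out, and chance alone places about 1 in 20 there. Without replicate 4 of both genotypes Bax had a log2 fold change of −0.11 (SE 0.18).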

How the results depend on the processing

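No member passed an adjusted p of 0.05 under any alternative run. In each cross and in the difference between them these were DESeq2, other scaling, no filter, 1 transcript per gene, the coding transcript and leaving out each epiblast, and where Ehmt2 epiblasts entered, leaving out replicate 4. The covariate and the replicate block were fitted within each cross and not for the difference. The coding transcript for the difference, and every set of epiblasts left out of the pro- over anti-apoptotic ratio, were chosen after seeing the data. Over 300 values of single members the lowest adjusted p was 0.095. With the replicate block the count of members passing was 0 in both crosses, and it changed no member's call. Replicate numbers 1 to 3 were not shown to pair the Ehmt2 epiblasts, with correlations of 0.05 to 0.16 for the same number and 0.05 to 0.15 for different numbers. Control 4 and knockout 4 correlated at 0.36, against −0.24 to −0.14 for replicate 4 with other numbers, and what they share was not tested. In the Ezh2 cross pairing was not shown either, with −0.12 to 0.15 for the same number and −0.20 to 0.21 for different numbers. At an unadjusted p under 0.05, the exact permutation test on single epiblasts passed in the Ehmt2 cross for Bak1 alone, on either scale. In that cross, without any 1 epiblast, the smallest exact p it allows is 0.0571. In the Ezh2 cross the smallest is 0.10, so no member could pass there.

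Signs of members that did not pass changed with the processing, and the cause was not tested. In the Ehmt2 cross, leaving out replicate 4 of both genotypes gave Bcl2 0.82. The covariate for extraembryonic ectoderm markers gave Mcl1 0.0047, Bcl2l11 0.49, Bax 0.17, Bid 0.69 and Bbc3 −0.00062, and in the Ezh2 cross Bcl2 −0.43. Without the term for replicate 4, Bax was 0.024. In the Ezh2 cross Bax was −0.0028 without the filter, −0.016 with 1 transcript per gene and −0.0015 with the replicate block. Leaving out 1 epiblast at a time, Ehmt2 values ranged from −0.78 to 0.83 for Bcl2, −0.18 to 0.041 for Mcl1, −0.30 to 0.022 for Bcl2l11, −0.11 to 0.10 for Bax and −0.20 to 0.13 for Bid. Ezh2 values ranged from −0.16 to 1.25 for Bcl2, −0.015 to 0.31 for Bcl2l1, −0.059 to 0.10 for Bax and −0.24 to 0.36 for Bbc3. The difference in the pro- over anti-apoptotic log2 ratio ranged from −0.26 to −0.04 in the Ehmt2 cross and from 0.09 to 0.29 in the Ezh2 cross.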
